A study of Mus musculus with 21 samples.

Results

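Interferon-stimulated genes are the genes that cells switch on when an interferon binds its receptor. A fixed list of 40 such genes was used. For each gene only probe sets annotated to that gene alone were considered, and where there were several the brightest on average across the arrays was kept. By this rule 36 of the 40 genes were measured, of 12393 genes in the whole data set. Isg15, the ubiquitin-like modifier, has only a probe set shared with another symbol, and Ly6e, Xaf1 and Ifi44 have no probe set under their own symbol, so these 4 were not analysed here.

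The cells were RAW 264.7, an established mouse macrophage line, and total RNA was measured on 21 Affymetrix arrays, 3 in each of 7 groups. Of these groups, 3 received amorphous silica particles of 10 nm at 5, 20 or 50 µg/ml (low, mid and high dose), 3 received particles of 500 nm at 250, 500 or 1000 µg/ml (low, mid and high dose), and 1 was left untreated. Exposure lasted 2 h in medium without serum, and the labels do not say whether the untreated cells were also moved to that medium. Nor do they say that the 3 arrays of a group, numbered 1 to 3 as in the titles, came from separate cultures. A p-value here therefore rests on array-to-array spread, part or all of which may be technical. Dose divided by diameter gives a nominal surface area, for smooth spheres of one density, and on that scale the 10 nm mid dose equals the 500 nm high dose, each 4 times the low dose of its size.

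A type I interferon binds the receptor pair Ifnar1 and Ifnar2, and the kinases Jak1 and Tyk2 bound to it phosphorylate transcription factors, among them Stat2. Stat2 and Irf9 are parts of a complex that binds a promoter element named ISRE, while the response to interferon gamma runs through an element named GAS. In macrophages the products block viral replication, sense foreign RNA and DNA, process antigen and limit the response itself.

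Macrophage identity was checked first. Of 10 macrophage markers 9 were measured, and the pan-macrophage marker Csf1r (mean log2 level 13.30), Lyz2 (12.99), Cd68 (12.22) and Cd14 (12.19) were bright, while the mannose receptor Mrc1 was dim (3.73). The summed level of the 9 markers lay between 14.7 and 15.0 in every group, and those of T and NK, B cell, neutrophil, fibroblast and epithelial markers stayed at or under 8.20. By limma, with p-values adjusted over all genes and called under 0.05, none of the 9 macrophage markers was called at any dose. Markers of plasmacytoid dendritic cells, the main interferon producers of blood, summed to 9.36 to 9.86 in untreated cells and 8.78 to 8.98 at the 500 nm high dose, nearly all of it from the transcription factor Tcf4 (9.08), while Ccr9 was at 3.47. Tcf4 fell by 0.50 at the 10 nm mid dose (adjusted p = 0.0104, limma), a call lost without untreated array 3 (0.0682) or 10 nm mid-dose array 1 (0.0745), and by 0.83 at the 500 nm high dose (adjusted p = 9.11e-05, limma). Markers of conventional dendritic cells summed to 7.24 to 7.75, with Itgax higher at the 500 nm high dose (0.57, adjusted p = 0.0208, limma), lost without untreated array 1 (0.0840) or 3 (0.0541) or 500 nm high-dose array 1 (0.0613). The fibroblast marker Pdgfra was higher at the 10 nm mid (0.49) and 500 nm high dose (0.39), and both calls were lost without untreated array 2, among others, or without the arrays numbered 3. The part of these markers in the members' results was not tested. In each bulk sample, fewer cells of a type and less RNA per cell cannot be told apart. The arrays numbered 3 had the lowest spread of values in 7 of 7 groups, and member counts are also given without them. As a sign of RNA quality, the 3′ minus 5′ log2 level of the Actb and Gapdh control probe sets was 1.15 in untreated array 3 and 0.952 in 10 nm high-dose array 3, against 0.137 to 0.548 in the 19 other arrays. Untreated array 3 is also the one that stands apart from arrays 1 and 2 in several members below, and the part of RNA quality in the results was not tested.

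Promoters are shown for 4 called members whose windows hold a match to a response element, Ifit2, Rsad2, Stat2 and Gbp3, and for Ifit1, which stands for the family. Windows of 300 bases, from 250 before to 50 after each annotated start, were taken from RefSeq (build GRCm38.p6) and were found for 28 of the 36 measured members, in 37 windows. ISRE was searched as GAAA, 2 bases of any kind and GAAA again, and GAS as TTC, 3 bases of any kind and GAA, each on both strands, and a match is only a match of letters. ISRE was found in 14 of 37 member windows (37.8%) against 3.44% of all 32851 windows, and GAS in 10 windows (27%) against 8.3%. The 13 members with an ISRE match were Gbp3, Ifit1, Ifit3, Rsad2, Stat2, Eif2ak2, Bst2, Lgals9, Gbp2, Ifih1, Oas1a, Oas3 and Trim30a. Of the other called members, Cmpk2 and Tap1 have a window with neither match. The 250 bases before the start are printed for 5 members, read 5′ to 3′ in the gene's own direction, with the matched letters in capitals. Ifit2 (chr19:34550444-34550693, plus strand) has a GAS match that begins at -241 from the start and no ISRE match in either of its 2 windows. Rsad2 (chr12:26456453-26456702, minus strand) has an ISRE match at -120, and Stat2 (chr10:128270248-128270497, plus strand) has one at -222. Gbp3 (chr3:142559794-142560043, plus strand) has 2 overlapping ISRE matches at -45 and -39, and Ifit1 (chr19:34640639-34640888, plus strand) has 2 at -104 and -85.
Ifit2: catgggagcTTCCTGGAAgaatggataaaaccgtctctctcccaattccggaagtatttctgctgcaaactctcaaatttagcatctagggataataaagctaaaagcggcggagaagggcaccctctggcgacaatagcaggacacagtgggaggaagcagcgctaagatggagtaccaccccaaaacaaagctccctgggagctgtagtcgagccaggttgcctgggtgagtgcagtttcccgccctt
Rsad2: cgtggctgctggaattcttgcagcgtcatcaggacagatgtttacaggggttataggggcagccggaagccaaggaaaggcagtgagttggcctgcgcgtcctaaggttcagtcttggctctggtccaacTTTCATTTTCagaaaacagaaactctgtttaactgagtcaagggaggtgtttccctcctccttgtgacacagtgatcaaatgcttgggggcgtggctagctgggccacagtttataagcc
Stat2: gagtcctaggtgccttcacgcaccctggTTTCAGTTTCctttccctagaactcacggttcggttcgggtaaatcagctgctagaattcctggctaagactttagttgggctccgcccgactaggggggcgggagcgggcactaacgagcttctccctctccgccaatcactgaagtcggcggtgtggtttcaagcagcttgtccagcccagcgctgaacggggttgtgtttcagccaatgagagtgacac
Gbp3: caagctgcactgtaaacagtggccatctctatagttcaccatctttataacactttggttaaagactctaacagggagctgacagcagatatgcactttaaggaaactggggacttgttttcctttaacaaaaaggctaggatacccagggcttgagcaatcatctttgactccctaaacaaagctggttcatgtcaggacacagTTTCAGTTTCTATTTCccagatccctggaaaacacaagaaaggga
Ifit1: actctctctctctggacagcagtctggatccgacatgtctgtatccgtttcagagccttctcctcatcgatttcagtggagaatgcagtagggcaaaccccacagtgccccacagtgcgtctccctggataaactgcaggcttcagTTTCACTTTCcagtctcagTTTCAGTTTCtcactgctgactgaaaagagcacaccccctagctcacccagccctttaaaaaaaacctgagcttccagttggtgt

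Most members did not pass the test at 2 h, and those that did were more often lower than higher. Called genes of the whole data set were also more often lower than higher at each mid and high dose. At the 10 nm doses the members' order did not hold under every scaling of the arrays. A gene was called at a Benjamini-Hochberg adjusted p under 0.05 in limma, over all 12393 genes. No member was called at either low dose, where 0.767% (10 nm) and 0.428% (500 nm) of all genes were called. At an unadjusted p under 0.05 there were 3 members at the 10 nm low dose, Adar, Cmpk2 and Ifit2, all lower, and 4 at the 500 nm low dose, Gbp3, Ifit2 and Tap1 lower and Usp18 higher. The share of all genes under that unadjusted cut was not computed, so these counts cannot be set against a background. At the 10 nm mid dose 5 of 36 members were called (13.9%), 1 higher and 4 lower, against 10.6% of all genes, 3.22% higher and 7.39% lower. At the 10 nm high dose 6 were called (16.7%), 1 higher and 5 lower, against 20.2% of all genes, 7.58% higher and 12.6% lower. At the 500 nm mid dose 4 were called (11.1%), 1 higher and 3 lower, against 2.77% of all genes, 1.26% higher and 1.51% lower. At the 500 nm high dose 8 were called (22.2%), 2 higher and 6 lower, against 15.3% of all genes, 5.31% higher and 10% lower. The members' share was thus near the background at the 10 nm doses. At the 500 nm mid dose it was above the background, but that count fell to 1 without 500 nm mid-dose array 1 or 3 and to 2 without untreated array 3. The 10 nm mid-dose count fell to 2 without untreated array 3 or 10 nm mid-dose array 1 and to 3 without 10 nm mid-dose array 2, and at the 500 nm high dose to 5 without untreated array 2. All these comparisons share the 3 untreated arrays.

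The direction of the 10 nm counts differed between scalings of the arrays. After quantile normalization 1 member was higher and 3 lower at the 10 nm mid dose (3.81% and 5.62% of all genes). At the 10 nm high dose 2 were then higher and 4 lower (6.78% and 8.98% of all genes). With each array centred on its median, 2 members were higher and 2 lower at the 10 nm mid dose and 2 higher and 3 lower at the 10 nm high dose, where 15% of all genes were then higher and 8.88% lower. With centring and rescaling to one SD the members' counts were 3 higher and 2 lower and 4 higher and 3 lower, with 14.2% of all genes higher and 7% lower at the 10 nm high dose. Members called at the 500 nm high dose were still more often lower, with 2 higher and 4 lower after centring (9.72% and 7.22% of all genes) and 3 higher and 4 lower after rescaling (12.2% and 6.11%).

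Across the 6 doses 10 members were called at least once and 26 never. Usp18 and Rsad2 were higher, and Ifit2, Cmpk2, Parp14, Gbp3, Stat2, Eif2ak2, Oas2 and Tap1 were lower. Ifit2, Rsad2, Cmpk2 and Tap1 were called at both high doses. When the spread was taken from the 6 arrays of each comparison alone, the calls that remained were Ifit2 at the 10 nm mid dose, Ifit2 and Stat2 at the 10 nm high dose, and Ifit2, Cmpk2, Parp14 and Usp18 at the 500 nm high dose. Centring each array on its median ended the calls of Stat2, Tap1 and Eif2ak2 and that of Cmpk2 at the 10 nm mid dose, and averaging the probe sets of a gene ended those of Stat2 and Tap1, of Eif2ak2 at the 10 nm mid dose and of Cmpk2 at all but the 500 nm high dose. The median log2 change of the 36 members was -0.18 at the 10 nm high dose and -0.11 at the 500 nm high dose, where the median of all genes was 0.04 and 0.07. Among the brighter genes, of log2 level 6 or more, the all-gene medians were -0.14 and -0.06 and the members' medians -0.20 and -0.18. Centring each array on its median moved the all-gene medians to 0.14 and 0.17 and the members' medians to -0.08 and -0.02. Members with a change below 0 were 25 of 36 (69.4%) at the 10 nm high dose, against 46.1% of all genes, and 23 of 36 (63.9%) at the 500 nm high dose, against 40.1%. The lower side was also the more common one among members whose groups did not overlap. At the 10 nm high dose 7 members (19.4%) lay wholly below the untreated arrays, near the 16.4% of all genes. There 1 member (2.78%) lay wholly above, against 16.9% of all genes. At the 500 nm high dose 9 (25%) lay below, against 15.9%, and 2 (5.56%) above, against 15.2%.

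**Figure D1:**
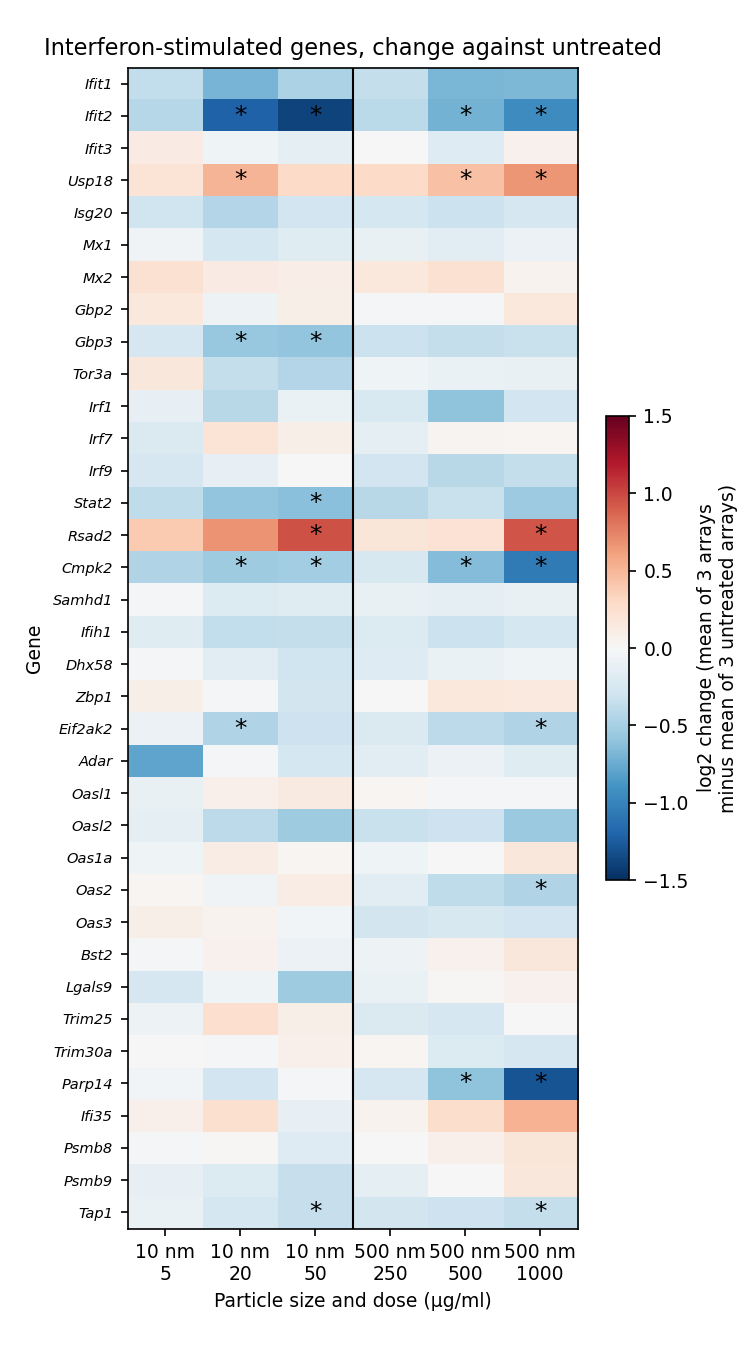
Heat map of the log2 change of the 36 measured members (rows, grouped by role) at 6 doses against untreated cells (columns, dose in µg/ml; mean of 3 arrays minus mean of 3), with an asterisk where limma's adjusted p is under 0.05. The strongest blue cells are Ifit2 at the 10 nm mid and high doses and Parp14 at the 500 nm high dose (-1.29), and the only rows with called rises are Usp18 and Rsad2.

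The members differed widely in their starting level. Oas1a, a 2′-5′-oligoadenylate synthetase, had the highest mean level (11.32) and Gbp2, a guanylate-binding GTPase, the lowest (3.20). Probe sets differ in brightness for reasons other than transcript number, so these levels order the probe sets only. The member median was 7.95 against 6.66 over all genes, and 25 of 36 members lay above the all-gene median.

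The IFIT proteins bind viral RNA and stop its translation. Ifit2 was called lower at 4 doses, as was Cmpk2, with its largest fall at the 10 nm high dose. Its log2 level was 6.48, 6.60 and 6.76 in untreated cells. It was 5.84, 6.42 and 6.29 at the 10 nm low dose, 5.35, 5.55 and 5.31 at the mid dose and 5.51, 5.04 and 5.13 at the high dose. With 500 nm particles it was 6.23, 6.27 and 6.12 at the low dose, 5.70, 6.13 and 5.87 at the mid dose and 5.75, 5.47 and 5.77 at the high dose. Every treated array therefore lay below the lowest untreated one. The change was -1.21 ± 0.16 (SE, adjusted p = 2.26e-05) at the 10 nm mid dose and -1.38 ± 0.16 (adjusted p = 3.39e-06) at the high dose, a 2.61-fold fall. For 500 nm particles it was -0.71 ± 0.16 (adjusted p = 0.0131) at the mid dose and -0.95 ± 0.16 (adjusted p = 0.00026) at the high dose. The 500 nm mid-dose call was lost without untreated array 3 (adjusted p = 0.0731), 500 nm mid-dose array 1 (0.0921) or array 3 (0.0592), and without all arrays numbered 3 (0.175). Ifit2 also fell with dose, by 0.30 ± 0.05 per doubling of the 10 nm dose (adjusted p = 0.000297).

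Ifit1 and Ifit3 did not pass the test. Ifit1, which binds RNA without a fully methylated cap, was 5.61, 6.03 and 6.80 in untreated cells, 5.80, 5.36 and 5.85 at the 10 nm high dose and 5.61, 4.99 and 5.83 at the 500 nm high dose. The untreated arrays spread so far that they overlap both treated groups. Its change was -0.47, with a 95% interval of -1.04 to 0.10 (adjusted p = 0.219), at the 10 nm high dose and -0.67, with an interval of -1.24 to -0.10 (adjusted p = 0.108), at the 500 nm high dose. Without untreated array 1 the latter was called, at -0.94 (adjusted p = 0.0302). Ifit3, whose probe set may also detect the near-identical Ifit3b, changed by -0.14 at the 10 nm high dose and 0.06 at the 500 nm high dose, with SEs of 0.16. Isg20, an RNA exonuclease, lay between -0.44 and -0.25 at the 6 doses and was not called.

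Usp18, the protease that removes Isg15 from its targets and damps interferon receptor signalling, was higher at 3 doses. It was 9.64, 9.42 and 9.31 in untreated cells. It was 9.95, 9.98 and 9.97 at the 10 nm mid dose, 9.92, 9.85 and 9.47 at the 10 nm high dose, 9.84, 10.01 and 9.84 at the 500 nm mid dose and 10.11, 10.23 and 10.01 at the 500 nm high dose. Only the 10 nm high-dose arrays overlapped the untreated ones among these 4 groups. The change was 0.51 ± 0.11 (adjusted p = 0.00494) at the 10 nm mid dose, 0.44 ± 0.11 (adjusted p = 0.0385) at the 500 nm mid dose and 0.66 ± 0.11 (adjusted p = 0.000372) at the 500 nm high dose. For the 10 nm high dose it was 0.29 ± 0.11 (adjusted p = 0.0775). The 500 nm mid-dose call was fragile: it was lost in 13 of 21 refits that each left out 1 array, with adjusted p-values up to 0.187 without untreated array 3 and 0.169 without 500 nm mid-dose array 2.

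The radical SAM enzyme Rsad2, called viperin, which blocks viral polymerases, rose at both high doses. Its level was 6.58, 6.67 and 7.27 in untreated cells, 7.57, 7.51 and 8.30 at the 10 nm high dose and between 7.32 and 8.02 at the 500 nm high dose (7.78 ± 0.40, SD, n = 3). Both high-dose groups lay above the untreated arrays, though 1 untreated array, at 7.27, came close. The change was 0.95 ± 0.26 (adjusted p = 0.0129) at the 10 nm high dose and 0.94 ± 0.26 (adjusted p = 0.0167) at the 500 nm high dose, rises of 1.94-fold and 1.92-fold. The 2 other probe sets of Rsad2 also changed upward, by 0.83 and 0.63 at the 10 nm high dose and 0.71 and 0.82 at the 500 nm high dose. The 10 nm call was lost without untreated array 1 (adjusted p = 0.0603) or 2 (0.0524) or 10 nm high-dose array 3 (0.0814). The 500 nm call was lost without untreated array 1 (0.0705) or 2 (0.0642) or 500 nm high-dose array 1 (0.0718) or 3 (0.0766). Its window holds the ISRE match printed above.

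Cmpk2, a mitochondrial nucleotide kinase, is the neighbour of Rsad2, on the opposite strand of chromosome 12 with starts 12.8 kb apart, and moved the other way. Its level was 6.70, 6.68 and 6.97 in untreated cells and 6.02, 6.38 and 6.38 at the 10 nm high dose. With 500 nm particles it was 6.06, 6.23 and 6.10 at the mid dose and 5.82, 5.64 and 5.72 at the high dose. No array of these treated groups reached the untreated ones. The change was -1.06 ± 0.14 (adjusted p = 2.88e-05) at the 500 nm high dose, a 2.09-fold fall. It was -0.65 ± 0.14 (adjusted p = 0.0126) at the 500 nm mid dose, -0.53 ± 0.14 (adjusted p = 0.0194) at the 10 nm mid dose and -0.52 ± 0.14 (adjusted p = 0.014) at the 10 nm high dose. The slope on 500 nm dose was -0.41 ± 0.07 per doubling (adjusted p = 0.000767), and that on 10 nm dose -0.02 (adjusted p = 0.758). Of these calls 3 were lost on leaving out 1 array. They were the 10 nm mid dose without untreated array 3 (0.0974) or 10 nm mid-dose array 1 (0.121) or 2 (0.0533), the 10 nm high dose without untreated array 3 (0.0551) or 10 nm high-dose array 1 (0.0577), and the 500 nm mid dose without untreated array 3 (0.0787) or 500 nm mid-dose array 1 (0.0667) or 3 (0.0573). A second, dimmer probe set of Cmpk2 changed by 0.05 at the 10 nm high dose and 0.00 at the 500 nm high dose, so the fall rests on 1 probe set. Samhd1, which degrades deoxynucleotides, was not called at any dose (-0.19 ± 0.11 and -0.11 ± 0.11 at the high doses). Its probe sets differed. A second one, at 8.39 in untreated cells, changed by -0.45 and -0.54 at the 10 nm and 500 nm high doses. The dimmer ones changed by 0.25 and 0.32 at the 10 nm high dose and by 0.17 and 0.07 at the 500 nm high dose. These other probe sets were not tested on their own.

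**Figure D2:**
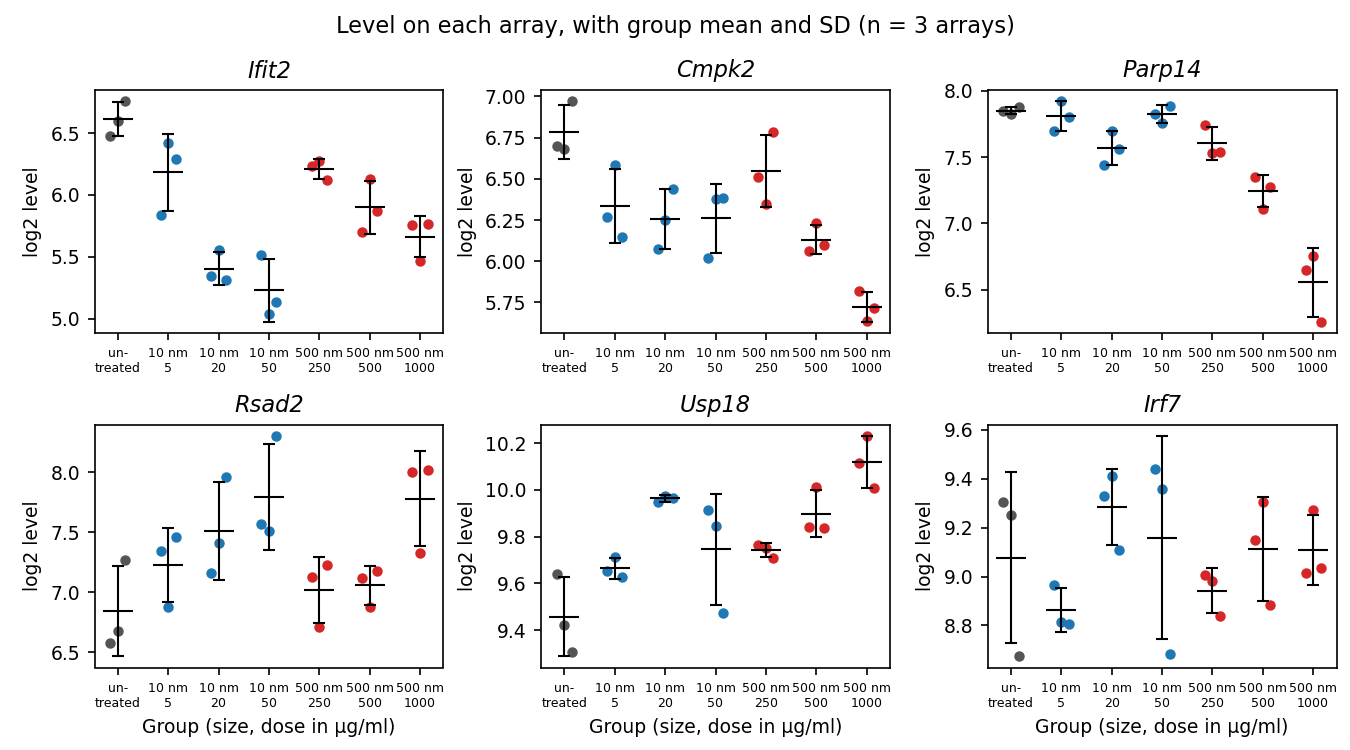
Log2 level of 6 members on each of 3 arrays per group (points; grey untreated, blue 10 nm, red 500 nm; dose in µg/ml), with group mean and SD (bars). Ifit2 lies below the untreated arrays in every treated group, Parp14 falls along the 500 nm doses to 6.26 to 6.75 and not along the 10 nm doses, and Irf7 overlaps the untreated arrays in every group.

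Parp14, a mono-ADP-ribosyltransferase that takes part in interferon and interleukin-4 signalling, fell in cells given 500 nm particles. Its log2 level was 7.85, 7.83 and 7.88 in untreated cells. At the 500 nm doses it was 7.74, 7.53 and 7.54 (low), 7.35, 7.11 and 7.27 (mid) and 6.65, 6.75 and 6.26 (high). At the 10 nm mid dose it was 7.44, 7.70 and 7.56, below the untreated arrays, with a change of -0.28 that was not called (adjusted p = 0.157). At the 10 nm high dose it was 7.83, 7.76 and 7.89, which overlaps the untreated arrays. The change was -0.61 ± 0.12 (adjusted p = 0.00556) at the 500 nm mid dose and -1.29 ± 0.12 (adjusted p = 2.71e-07) at the high dose, a 2.45-fold fall. At the 10 nm high dose it was -0.03, with a 95% interval of -0.28 to 0.22 (adjusted p = 0.892). The slope per doubling of the 500 nm dose was -0.52 ± 0.06 (adjusted p = 8.4e-06). No call of Parp14 was lost on leaving out any 1 array.

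The GTPases of the MX and GBP families act against viruses and intracellular pathogens. Gbp3 was called lower at the 10 nm mid and high doses. Its level was 5.75, 5.85 and 6.48 in untreated cells, 5.45, 5.54 and 5.40 at the mid dose and 5.45, 5.26 and 5.62 at the high dose, and no treated array reached the untreated ones. The change was -0.57 ± 0.15 (adjusted p = 0.0142) at the mid dose and -0.59 ± 0.15 (adjusted p = 0.00763) at the high dose. Without untreated array 3, at 6.48, the mid-dose change was -0.34 (adjusted p = 0.0779), and that call was also lost without 10 nm mid-dose array 1 (0.0529) or 3 (0.0545). With 500 nm particles Gbp3 changed by -0.33, -0.36 and -0.33 at the low, mid and high doses, none called (adjusted p = 0.776, 0.282 and 0.133), each at an unadjusted p under 0.05. The size comparison at the high doses gave -0.25 (interval -0.56 to 0.05, adjusted p = 0.361). Gbp genes are a family of similar copies, which their probe sets may not tell apart. Mx1, at 4.37, 4.43 and 4.60 in untreated cells, changed by -0.18 at the 10 nm high dose and -0.09 at the 500 nm high dose and overlapped the untreated arrays at both. Mx2, Gbp2 and the ATPase Tor3a were not called at any dose, but Tor3a fell with the 10 nm dose, by 0.19 per doubling (adjusted p = 0.0201), a call lost without 10 nm low-dose array 2 (0.0797) or 3 (0.0776) or 10 nm high-dose array 1 (0.0593) or 2 (0.0907).

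Of the transcription factors only Stat2 was called. Stat2, which acts with Irf9 in the complex that binds ISRE, was 5.41, 5.65 and 5.50 in untreated cells and 4.99, 4.79 and 4.88 at the 10 nm high dose, where the groups did not overlap. The change was -0.63 ± 0.21 (adjusted p = 0.0418). The call was lost without any one of untreated arrays 1 (0.0653), 2 (0.129) and 3 (0.067) or of 10 nm high-dose arrays 2 (0.108) and 3 (0.0955), and the other probe set of Stat2 changed by -0.15. At the 500 nm high dose Stat2 was 4.61, 5.40 and 4.90, with a change of -0.55 (adjusted p = 0.09). Irf7, the factor that amplifies interferon production, was 9.31, 9.25 and 8.67 in untreated cells, 9.44, 9.36 and 8.68 at the 10 nm high dose and 9.02, 9.27 and 9.04 at the 500 nm high dose. Its change was 0.08 (interval -0.30 to 0.47) and 0.03 (interval -0.35 to 0.41), so a change beyond 0.47 in size lay outside both intervals. Irf1 and Irf9 were not called, with changes of -0.60 and -0.42 at the 500 nm mid dose (adjusted p = 0.111 and 0.143).

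Of the sensors and RNA-binding enzymes Eif2ak2, Ifih1, Dhx58, Zbp1 and Adar only Eif2ak2 was called. Eif2ak2, the RNA-activated kinase PKR, changed by -0.45 ± 0.13 at the 10 nm mid dose (adjusted p = 0.0334) and by -0.45 ± 0.13 at the 500 nm high dose (adjusted p = 0.0266). The first call was lost without untreated arrays 1, 2 or 3 (0.0737, 0.0596 and 0.0941) or 10 nm mid-dose arrays 1 or 2 (0.161 and 0.13), and the second without untreated arrays 1, 2 or 3 (0.0587, 0.05 and 0.0721) or 500 nm high-dose array 2 (0.131). Both were also lost after quantile normalization (0.203 and 0.163). The other, dimmer probe set of Eif2ak2 changed by 0.02 at the 10 nm mid dose and -0.29 at the 500 nm high dose. The RNA sensor Ifih1, its relative Dhx58, the nucleic acid sensor Zbp1 and the editing enzyme Adar were not called. Ifih1 changed by -0.37 at the 10 nm mid dose, -0.36 at the 10 nm high dose and -0.32 at the 500 nm mid dose (adjusted p = 0.0868, 0.0614 and 0.309), each at an unadjusted p under 0.05. Adar had the widest spread, with untreated arrays at 8.89, 8.96 and 8.07 and an SE of 0.35, so its -0.80 at the 10 nm low dose was not called (adjusted p = 0.653).

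In the OAS family, whose products activate RNase L, only Oas2 was called. Its level was 8.24, 8.27 and 7.89 in untreated cells, 8.37, 8.38 and 7.97 at the 10 nm high dose and 7.68, 7.72 and 7.65 at the 500 nm high dose. The 500 nm arrays lay below all untreated ones, and the 10 nm arrays overlapped them. The change was -0.45 ± 0.12 (adjusted p = 0.0177) at the 500 nm high dose, lost without untreated array 1 (0.0686) or 2 (0.0806) or 500 nm high-dose array 3 (0.0568), and 0.11 (adjusted p = 0.556) at the 10 nm high dose. Oas1a, Oas3, Oasl1 and Oasl2 changed by -0.55 to 0.17 at the high doses and were not called. Oas1a belongs to a cluster of near-identical copies that its probe set may share.

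Among the remaining members only Tap1 was called. Tap1, a subunit of the peptide transporter for antigen presentation, was 7.45, 7.33 and 7.40 in untreated cells, 7.24, 6.99 and 6.91 at the 10 nm high dose and 7.07, 6.95 and 7.11 at the 500 nm high dose. Both treated groups lay below the untreated arrays. The change was -0.35 ± 0.10 at both (adjusted p = 0.0197 and 0.0215). The 10 nm call was lost without untreated array 1 (0.0695) or 10 nm high-dose arrays 2 (0.0676) or 3 (0.096), the 500 nm call without untreated array 1 (0.0696) or 500 nm high-dose array 2 (0.0794), and the mean over the 4 probe sets of Tap1 changed by -0.06 and -0.08. The immunoproteasome subunits Psmb8 and Psmb9, the tetherin gene Bst2, the lectin gene Lgals9, the ubiquitin ligases Trim25 and Trim30a and the adaptor gene Ifi35 were not called at any dose. The dimmest Trim25 probe set changed by 0.73 and 0.69 at the 10 nm mid and high doses, and another by 0.19 and -0.02. The other Trim30a probe set changed by -0.46 and -0.43 at the 10 nm and 500 nm high doses, against 0.07 and -0.26 for the one used. Ifi35 was 9.42, 9.26 and 8.14 in untreated cells, and Lgals9 10.63, 10.52 and 9.77, with array 3 the lowest in both.

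The 2 particle sizes were compared directly at 3 pairs of doses, with p-values adjusted over all genes within each pair. At the low doses, which have equal nominal area, limma called 0 of 36 members (0.0888% of all genes), and 0 had an unadjusted p under 0.05. At equal nominal area, 10 nm mid against 500 nm high, 1 member was called (2.85% of all genes). At the high doses 3 were called (7.52% of all genes), all 3 higher in the cells given 10 nm particles (3.37%). Parp14 was 1.01 higher (95% interval 0.76 to 1.26, adjusted p = 4.87e-05) at equal area and 1.27 higher (interval 1.02 to 1.52, adjusted p = 1.55e-06) at the high doses. At the high doses Oas2 was 0.56 higher (interval 0.30 to 0.82, adjusted p = 0.00808) and Cmpk2 0.54 higher (interval 0.24 to 0.84, adjusted p = 0.0245). With the 6 arrays of each comparison alone only the differences of Parp14 remained. The Cmpk2 difference was lost without 10 nm high-dose arrays 2 (0.0979) or 3 (0.0981) or 500 nm high-dose arrays 2 (0.0996) or 3 (0.0583), and without all arrays numbered 3 (0.0655). With the mean over its probe sets it was 0.29 (adjusted p = 0.115). For Rsad2 the difference at the high doses was 0.02, with an interval of -0.52 to 0.55, and for Ifit2 it was -0.43, with an interval of -0.76 to -0.11 (adjusted p = 0.11). These high doses differ in nominal area.

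**Figure D3:**
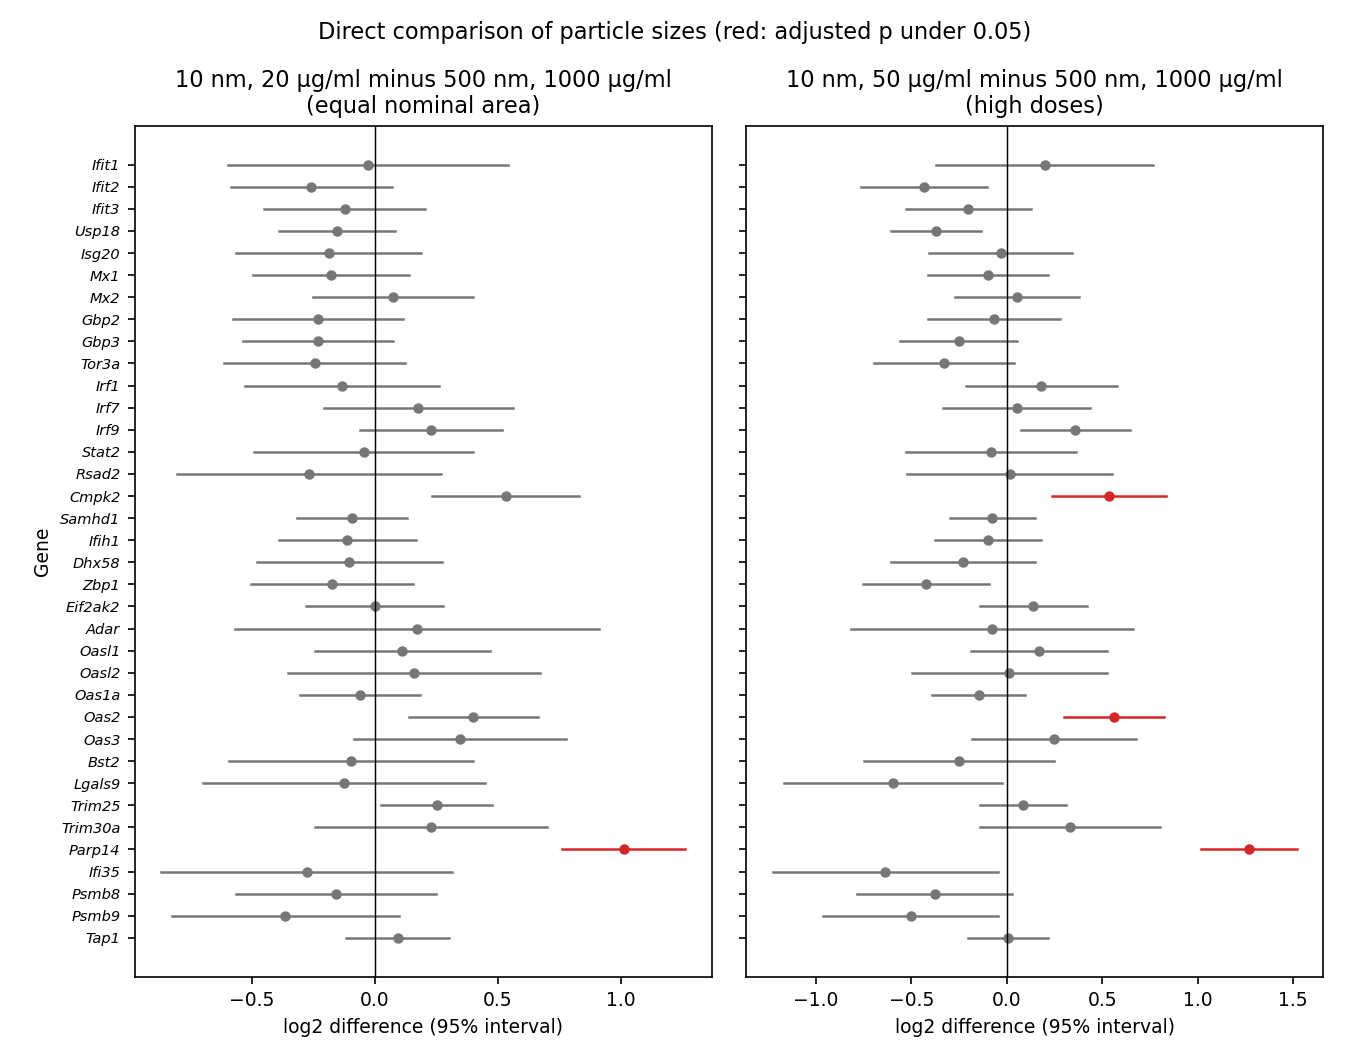
Difference in log2 level between 10 nm and 500 nm groups for the 36 members (points, with 95% intervals from limma; red where the adjusted p is under 0.05), at equal nominal area on the left and at the high doses on the right. Parp14 stands far to the right in both panels, at 1.01 and 1.27.

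The surrounding pathway was read from lists of genes. Beside the counts that follow stand 7.58% of all genes called higher and 12.6% lower at the 10 nm high dose and 5.31% higher and 10% lower at the 500 nm high dose. Of 14 interferon genes, the ligands, 9 were measured. Only Ifnb1 was called, at the 500 nm high dose (0.36 ± 0.11, adjusted p = 0.0381), where its level was 4.77, 5.01 and 5.14 against 4.63, 4.49 and 4.72 in untreated cells. That call was lost without untreated array 1 (0.0726) or 2 (0.147) or 500 nm high-dose array 2 (0.0899) or 3 (0.183), and after quantile normalization (0.38). In the 10 nm high-dose comparison 2 of the 9, Ifna1 and Ifna9, had an unadjusted p under 0.05, and in the 500 nm high-dose comparison 3 had one, Ifna9, Ifna11 and Ifnb1, all of them higher. The share of all genes under that unadjusted cut was not computed.

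Of 10 receptor and JAK-STAT genes 9 were measured, with 1 higher and 4 lower in cells given 10 nm particles at the high dose and 1 higher and 3 lower in those given 500 nm. The one higher was Stat3, a transcription factor of interleukin-6 signalling, by 0.56 and 0.41. Ifngr2, a chain of the interferon gamma receptor, changed by -1.05 ± 0.31 at the 10 nm high dose (adjusted p = 0.0214), a call lost without untreated array 1 (0.0938) or 2 (0.0797) or 10 nm high-dose array 3 (0.136). Ifnar2 fell there by 0.72 ± 0.18 (adjusted p = 0.00723), and Jak2, the kinase bound to Ifngr2, fell by 0.79 ± 0.14 and 0.71 ± 0.14 at the high doses (adjusted p = 0.000337 and 0.000985). The Jak2 arrays were 7.96, 7.88 and 8.38 untreated, 7.28, 7.18 and 7.39 at the 10 nm high dose and 7.36, 7.20 and 7.52 at the 500 nm high dose, so both treated groups lay below the untreated arrays.

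Of 21 sensor, adaptor and inducing-factor genes 15 were measured, 5 were lower at each high dose and none was higher. The adaptor of RNA sensing Mavs was 7.82, 7.81 and 8.62 in untreated cells, 6.53, 6.44 and 7.16 at the 10 nm high dose and 6.26, 6.59 and 6.65 at the 500 nm high dose. It fell by 1.37 ± 0.22 (adjusted p = 0.00022) and 1.59 ± 0.22 (adjusted p = 5.26e-05). Tlr4, the receptor for bacterial lipopolysaccharide, was 7.73, 7.82 and 8.40 in untreated cells, 6.99, 6.90 and 6.82 at the 10 nm high dose and 6.31, 6.75 and 6.26 at the 500 nm high dose, all below the untreated arrays. It fell by 1.08 ± 0.15 (adjusted p = 4.5e-05) and 1.54 ± 0.15 (adjusted p = 6.52e-07). The kinase Ikbke fell by 0.55 and 0.62 (adjusted p = 0.0111 and 0.00558), the first of which was lost without untreated array 1 (0.0594) or 2 (0.0519) or 10 nm high-dose array 3 (0.0597).

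Of 14 negative regulators 11 were measured, with 1 higher and 3 lower at each high dose. Irf2, a repressor at ISRE, changed by -1.01 ± 0.17 (adjusted p = 0.000333) and -1.11 ± 0.17 (adjusted p = 0.000142). Socs3, an inhibitor of JAK kinases, was at -1.02 ± 0.24 at the 500 nm high dose (adjusted p = 0.00546) and -0.70 ± 0.24 at the 10 nm high dose (adjusted p = 0.0432). The 10 nm call was lost in 9 of 21 refits that each left out 1 array, with -0.37 (adjusted p = 0.189) without untreated array 3. Atf3, a stress-induced transcription factor that can repress, was the one higher, and it was called at all 6 doses. It was 8.62, 8.75 and 8.79 in untreated cells, 12.36, 12.35 and 12.09 at the 10 nm high dose and 12.31, 12.47 and 12.13 at the 500 nm high dose. The rises were 3.54 ± 0.11 (adjusted p = 2.68e-14) and 3.58 ± 0.11 (adjusted p = 2.21e-14), or 11.6-fold and 12-fold, and at the low doses 2.06 and 1.94.

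Of 57 other interferon-inducible genes 47 were measured. None was higher and 11 were lower at the 10 nm high dose, 3 were higher and 7 lower at the 500 nm high dose. The chemokine Cxcl10 was 6.06, 6.06 and 5.37 in untreated cells, 6.02, 6.13 and 5.40 at the 10 nm high dose and 7.62, 7.87 and 7.26 at the 500 nm high dose. It rose by 1.76 ± 0.21 at the 500 nm high dose (adjusted p = 7.03e-06), with 0.02 ± 0.21 at the 10 nm high dose, and the sizes differed by -1.74 (adjusted p = 3.05e-05). It was also higher at the 500 nm mid dose, by 0.97 (adjusted p = 0.0122), a call lost without untreated array 3 (0.0871) or 500 nm mid-dose array 2 (0.0837). Slfn2, a growth regulator of immune cells, also rose only with 500 nm particles by this test, by 1.39 ± 0.23 (adjusted p = 0.000284; sizes differed by -1.39, adjusted p = 0.000695). With the 6 arrays of each comparison alone, the calls of Ifnb1, Ifngr2, Ifnar2, Ikbke and Socs3 ended. The Cxcl10 call at the 500 nm mid dose ended there too (adjusted p = 0.124, limma). Znfx1, an RNA sensor on mitochondria, fell by 1.47 ± 0.13 and 1.37 ± 0.13 (adjusted p = 2.11e-07 and 5.27e-07).

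**Figure D4:**
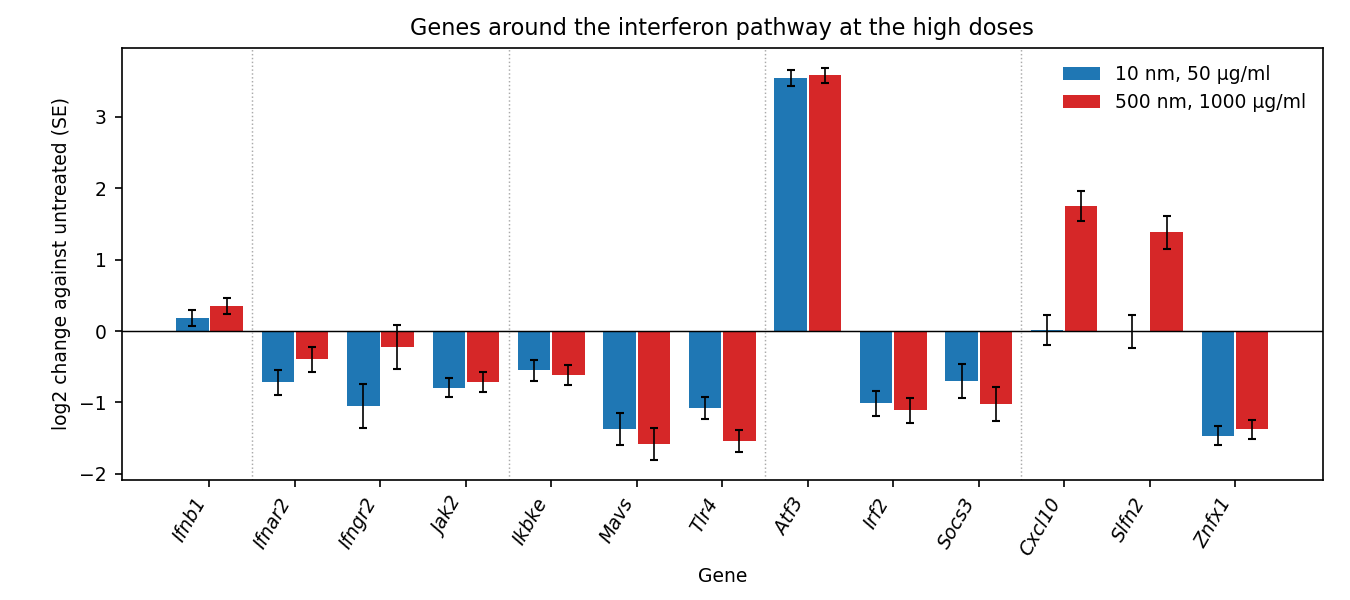
Log2 change (bars, with SE) against untreated cells at the 10 nm high dose (blue) and the 500 nm high dose (red) for 13 genes of the surrounding pathway, the lists separated by dotted lines: ligand, receptors and kinase, sensors and kinases, negative regulators, other inducible genes. Mavs and Znfx1 lie below 0 at both doses, while Cxcl10 and Slfn2 were called higher at the 500 nm high dose and not at the 10 nm high dose.

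Promoter matches and changes were set side by side. Among the 13 members with an ISRE match 1 was called higher and 2 lower at the 10 nm high dose, and among the 15 with a window and no match none was higher and 3 were lower. At the 500 nm high dose the counts were 1 higher and 1 lower with a match, and 0 higher and 3 lower without. Of the 8 members with no window, 0 were called at the 10 nm high dose, and 1 was higher and 2 lower at the 500 nm high dose. Of all genes 7.58% were called higher and 12.6% lower at the 10 nm high dose, and 5.31% and 10% at the 500 nm high dose.

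In refits with each array left out, 4 to 7 members were called at the 10 nm high dose (14.2% to 24.5% of all genes) and 5 to 9 at the 500 nm high dose (11.1% to 18% of all genes). Without all 7 arrays numbered 3, the counts were 4 at the 10 nm mid dose (9.18% of all genes), 10 at the 10 nm high dose (18.1%), 2 at the 500 nm mid dose (2.11%) and 7 at the 500 nm high dose (13.3%).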

How the data were processed

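Total RNA of RAW 264.7 cells in 7 groups of 3 arrays was analysed from the deposited table of 1 log10 value per probe set and array, which the authors obtained by RMA according to the submitters' processing notes. RMA corrects background, normalizes arrays and summarises probe sets, which compresses changes of dim genes; its version, its settings and the log base are not given in the sources that were used. The base was read from the values: the highest, 4.34, is an intensity of 22019 in base 10 and only 20.3 in base 2. Multiplying by 3.32 gave log2 values, and every fold change rests on that reading.

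Of 22690 probe sets 20393 had 1 gene symbol in the platform annotation. Without the control probe sets among them 20380 were used, giving 12393 genes. Groups were compared in R 4.3.3 with limma 3.58.1 (lmFit and eBayes, all 21 arrays, group as the only factor, two-sided, Benjamini-Hochberg over all genes), with 14 residual degrees of freedom. Slopes are per doubling of dose within a size. SDs are over 3 arrays and SEs are from the fit. The number of arrays limits the precision. The scripts were tested on simulated data. Full values are given for members called with a log2 change of at least 0.5 at a dose and for the reference members Ifit1, Irf7, Mx1 and Stat2, and from each list for the 3 largest changes among genes called at a high dose, with Ifnb1 always. Another gene of that rule is not reported here. The members and lists were chosen with earlier results of these data known. Promoter sequences and gene positions are from RefSeq, build GRCm38.p6. Alternatives were quantile normalization, centring, rescaling, array weights, the replicate number as a block, a filter at log2 6, the mean of probe sets, only the groups compared, and leaving out arrays. Plots used Python 3.11.15 and matplotlib 3.10.9.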

Additional observations from a re-analysis of the deposited data

Results flagged for a closer look

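The difference between particle sizes was itself tested, and 3 members differed. Parp14 was higher with 10 nm than with 500 nm particles by 1.01 on the log2 scale at equal nominal area (10 nm mid against 500 nm high dose) and by 1.27 at the high doses. At the high doses Oas2 was higher by 0.56 and Cmpk2 by 0.54. The Cmpk2 difference did not hold without 10 nm high-dose array 2 (adjusted p = 0.0979, limma) or 3 (0.0981) or 500 nm high-dose array 2 (0.0996) or 3 (0.0583), nor without all arrays numbered 3 (0.0655), and was 0.29 (adjusted p = 0.115) with the mean over probe sets. With the 6 arrays of the comparison alone Oas2 had an adjusted p of 0.138 and Cmpk2 of 0.149. Groups of 3 arrays were not tested for single outlying arrays.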

How the results depend on the processing

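Counts of members called by limma are given against those reported, in the order 10 nm low, mid and high dose, 500 nm mid and high dose, the size comparisons at equal area and at the high doses, the slopes on 10 nm and 500 nm dose and any difference among groups, which were 0, 5, 6, 4, 8, 1, 3, 2, 4 and 7. With array weights, a fit that stopped before its tolerance, they were 6, 13, 17, 11, 11, 8, 19, 15, 9 and 29. With the replicate block they were 0, 11, 12, 8, 12, 3, 8, 3, 6 and 15. The shares of all genes rose too: at the 10 nm and 500 nm high doses they were 50.5% and 39.2% with weights, against 47.2% and 30.6% of members, and 36.7% and 27.7% with the block, against 33.3% of members at each. The reported fit did not use the replicate numbers, though same-number arrays of different groups tended to deviate together from their group means. Of 63 such pairs 51 correlated above 0.1 (median 0.459, lowest -0.24, highest 0.759), while pairs of different number had a median of -0.258. The link was not complete, and 12 of 21 arrays correlated best with their own number. What the numbers stand for is not given in the labels. With the block, 3 members were higher and 5 lower in the high-dose comparison of 10 nm against 500 nm (6.33% and 10.4% of all genes). With only the groups compared the counts were 0, 1, 2, 0, 4, 1, 1, 1 and 6, without a value for any difference. The shares of all genes called were, in the same order, 0.226%, 5.31%, 5.58%, 1%, 6.14%, 0.783%, 1.32%, 7.47% and 9.82%. Without the arrays numbered 3 they were 0, 4, 10, 2, 7, 2, 4, 7, 5 and 10. For scaling and the filter on dim genes only the counts that moved most in proportion are given. Quantile normalization gave 3 at equal area (3.57% of all genes) and 1 on the 10 nm slope (9.76%), and centring 1 on that slope (11.6%). Centring with rescaling gave 2 at equal area (3.16%) and 5 on that slope (11.7%), and the filter 2 at equal area. The mean over probe sets gave 7 at the 10 nm mid dose (11.6%), 3 higher and 4 lower, and 4 at the 10 nm high dose (21.2%). No count at the 500 nm low dose or between the low doses left 0. Leaving out 1 array at a time gave 0 to 0, 2 to 7, 4 to 7, 1 to 4, 5 to 9, 1 to 2, 2 to 5, 1 to 4, 2 to 5 and 5 to 8. These refits called 6.75% to 14.4% of all genes on the 10 nm slope and 5.21% to 10.3% on the 500 nm slope. For any difference among groups they called 13.6% to 17.4% of all genes. In the size comparisons they called 1.54% to 3.68% at equal area and 4.38% to 9.53% at the high doses. The high-dose size count reached 5 without untreated array 3 or 10 nm high-dose array 1. The cause of these shifts was not tested. The fits that left arrays out also had fewer arrays.

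Values near 0 changed sign, none of them called in the reported fit. Irf7 at the 500 nm high dose was -0.20 with array weights and -0.13 without the arrays numbered 3, and Mx1 there was 0.0070 after centring, 0.12 with weights and 0.037 without the arrays numbered 3. After quantile normalization Ifnb1 at the 10 nm high dose was -0.035, Cxcl10 -0.067 and Slfn2 0.14. Slfn2 there was 0.11 after centring, 0.21 after rescaling, 0.021 with weights and 0.033 without the arrays numbered 3. Leaving out 1 array gave the lowest and highest values that follow in the same comparisons: Irf7 at the 10 nm high dose -0.12 to 0.32, Irf7 at the 500 nm high dose -0.17 to 0.15, Mx1 at the 10 nm high dose -0.37 to 0.0081, Cxcl10 at the 10 nm high dose -0.21 to 0.25 and Slfn2 at the 10 nm high dose -0.20 to 0.24.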
